A study of Mus musculus with 221 samples.

Results

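Histone transcripts were measured in single early 2-cell mouse embryos whose sires had eaten either low-fat (LFD) or high-fat (HFD) food. Genes were taken by symbol (Hist followed by a number and h, H1f, H2a, H2b, H3c, H3f or H4c), and 6 pseudogenes were left out. Of the 55291 genes in the count table, those that remained comprised 60 replication-dependent core histone genes, 5 replication-dependent linker genes, 3 cluster genes named for testis or oocyte use, 31 replacement variants, 4 other linkers and 2 genes in no class. The embryos, 99 LFD and a somewhat larger number of HFD, came from in vitro fertilization of C57BL/6N oocytes that carry mitochondrial DNA of the Staudach line. The sperm came from C57BL/6N males, so both groups share the maternal genotype and differ in the diet of the sire. The labels do not tie an embryo to its sire, and embryos of 1 sire are not independent, so the p-values measure the spread between embryos only.

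Histones H2A, H2B, H3 and H4 form the core particle around which DNA is wound, and linker histone H1 binds where DNA enters and leaves it. Replication-dependent histone genes lie in clusters and are used in S phase. Their mRNAs end in a short stem-loop rather than a poly(A) tail, and stem-loop binding protein acts on that hairpin. Replacement variants such as H3.3 and H2A.Z are encoded by genes outside these clusters whose mRNAs are polyadenylated, and they are incorporated outside replication as well. After fertilization the protamines of the paternal genome are exchanged for maternal histones, and H1foo, the oocyte linker histone encoded by H1f8, is present in the oocyte. Smart-seq2 primes on poly(A), so a transcript that ends in the stem-loop is copied poorly whatever its abundance. The values below are therefore levels of RNA copied by poly(A) priming and not of all histone mRNA. Whether the replication-dependent reads come from polyadenylated molecules was not tested.

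Where the gene model has room for it, the hairpin largely separates these classes in sequence. A perfectly paired stem of 6 bases beginning with GG, closed by a loop of 4 bases beginning with TT, was searched for after the stop codon in the annotated transcripts (GENCODE M21, GRCm38). It was found in 41 of the 65 replication-dependent genes. Of those 65 models, 16 had no room for it after the stop codon, and 8 had room but did not hold it. Of 20965 protein-coding genes with at least 16 bases after the stop codon, 94 (0.448%) held it. Among the 31 replacement variants, 18 models had room for the hairpin and only H2ax held it. None of the 4 other linkers had it, though all had room. Of the remaining members, H1f6 of the testis and oocyte type and H2bfm, in no class, held it. The lines below show 30 bases around the hairpin, 5′ to 3′, with stem and loop in capitals. They are the replication-dependent genes with the highest level of H4, H2A and H2B, and those of H3 and H1 with the hairpin in the model, and the variant H2ax.
H4c3 (chr13:23698080-23698109, minus strand): caaaaGGCCCTTTTCAGGGCCacccacaaa
Hist1h2ao (chr13:21810893-21810922, plus strand): aaaaaGGCTCTTTTCAGAGCCatccacagt
H2bu2 (chr11:58949344-58949373, plus strand): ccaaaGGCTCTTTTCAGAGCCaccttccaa
H3c7 (chr13:23544927-23544956, plus strand): aaaacGGCTCTTTTAAGAGCCacctccatt
H1f2 (chr13:23739507-23739536, plus strand): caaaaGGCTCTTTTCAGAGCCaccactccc
H2ax (chr9:44335235-44335264, plus strand): acaaaGGCCCTTTTAAGGGCCaccacctcc

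The 6 share the pairing and the start of the loop. Hist1h2ao, H2bu2 and H1f2 have the same hairpin letters, and the other 3 differ from these in stem or loop. H2ax runs on for 822 annotated bases past its hairpin, H4c3 for 454 and Hist1h2ao for 31. At the other end of the gene, the letters TATAAA were found on either strand in 25 of 46 promoters of the replication-dependent core class (54.35%), against 13.62% of 32851 promoters of the same length (RefSeq, GRCm38.p6). The letters CCAAT were in 40 of those 46 promoters (86.96%), against 37.41% of all promoters. Among 30 promoters of the replacement variants, 4 held TATAAA (13.33%) and 11 held CCAAT (36.67%). Such a match describes the letters and not a binding site.

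Each library held between 1937251 and 17246791 counts (median 5706066), and 11364 to 21638 genes had a count. In 13 libraries, 7 HFD and 6 LFD, fewer than 16000 genes had a count. All 6 oocyte-derived markers were counted in every embryo, as were 5 of 6 early 2-cell markers, the least frequent being counted in 214 embryos. The 10 markers of cumulus and granulosa cells were each counted in 8 to 206 embryos. The 6 sperm markers were counted in 19 to 155 embryos and the 10 macrophage markers in 13 or more. The summed macrophage level (log2) spanned 5.27 to 6.97 among LFD embryos and 4.34 to 11.8 among HFD embryos, 10 of which exceeded every LFD value.

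The counts of histone RNA copied by poly(A) priming in these embryos were almost wholly those of variants and of linkers outside the cluster. Together they gave 97.9% ± 0.844 (SD over all embryos, as are the following ± values of levels) of all histone counts, and the 65 replication-dependent genes gave 1.91% ± 0.793. Their summed level was 4270 ± 1351 CPM (counts scaled to a common library total), against 79.5 ± 34.7 CPM for the replication-dependent genes. The ratio between them was 18.5 in the lowest embryo, 54.02 in the median embryo and 433 in the highest, so that no embryo came near equal counts. Per kilobase of gene length, which is the scale for comparing genes, the median ratio was 15.3 and the lowest 4.98. Without the 35 genes whose span overlaps another gene, the classes kept this order, with 1.75% ± 0.783 of the remaining histone counts in the replication-dependent genes. Reads that align to several places were dropped, which can lower genes with near copies. Replication-dependent genes share a median of 60.2% of their 31-base words with other transcripts. The median was 43.84% in variants and other linkers, and H3f3b shares 11.24%. The part of read assignment in the ratio was not tested.

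**Figure D1:**
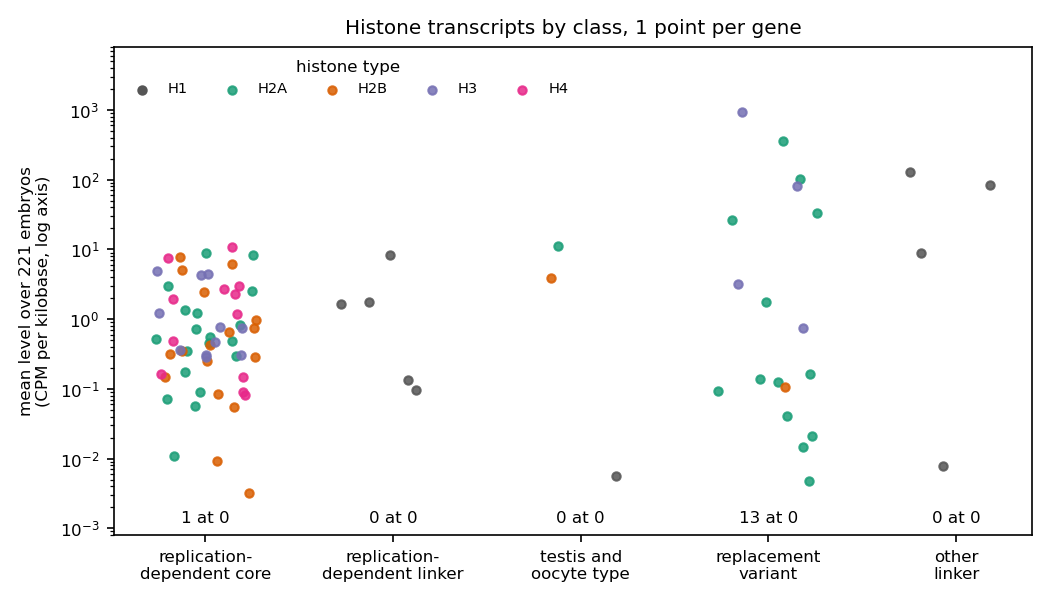
Mean level of each histone gene over all embryos, in CPM per kilobase on a log axis, by class, with 1 point per gene coloured by histone type; genes at 0 in every embryo are counted along the bottom, and the 2 genes in no class are not shown. The 8 highest genes are 6 replacement variants and 2 other linkers, and 13 replacement variants are at 0.

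The order within the variants was steep. H3f3b, which with H3f3a encodes histone H3.3, stood first at 922 ± 399 CPM per kilobase (chr11:116021912-116027962). It alone gave 61.97% ± 6.39 of histone counts. H2az1, a gene of H2A.Z, followed at 359 ± 143 per kilobase (chr3:137864487-137866922), and the second H2A.Z gene H2az2 was at 103.2 ± 41.2 per kilobase (chr11:6427229-6444443). The oocyte linker gene H1f8 was at 128.6 ± 59.95 per kilobase (chr6:115944938-115950236). H1f0, a linker histone known from non-dividing cells, was at 84.8 ± 37.8 per kilobase (chr15:79028450-79030504), and H3f3a was at 80.3 ± 20.5 per kilobase (chr1:180800832-180813943). The mean ± SD ranges of H1f8, H2az2, H1f0 and H3f3a overlap between embryos, and the order of these 4 means was not tested. H2aj (33.5 ± 17.2 per kilobase, chr6:136808244-136810074) and H2ax (26.3 ± 12.8 per kilobase, chr9:44334694-44336077) closed the first 8. H2ax encodes H2A.X, which is phosphorylated at DNA breaks.

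Both genes of H3.3 make the same protein, yet their transcripts differed in level by a median factor of 10.5 per kilobase, H3f3b being the higher in all embryos (range 3.74 to 95.2). The corresponding ratio of H2az1 to H2az2 was 3.46, with a range of 1.23 to 7.498. H1f8 stood above H1f0 in the median embryo (ratio 1.497), but the ratio ran from 0.353 to 22.8, so their order changed between embryos.

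The remaining variants were scarce or absent. Of the 31 replacement variants, 13 had no count in any embryo and 21 were counted in fewer than 10% of embryos. The genes at 0 were 11 of the H2al1 genes and both H2al2b and H2al2c, sperm-type H2A variants that lie in near-identical copies. All but 1 of these 13 share at least 93.11% of their 31-base words with another transcript, and reads that align to several places were not counted, so a count of 0 here does not show absence of RNA. H2al2a was counted in 10 embryos and H2al3 in 19. H2bl1 was the only H2B gene classed as a replacement variant and was counted in 15 embryos. The H2B genes H2bc1 and H2bfm were not put in this class. H3f3c was counted in 202 embryos at a mean of 7.72 counts, and 91.34% of its words are shared with other transcripts.

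Among replication-dependent genes no single gene stood far above the rest. Of the 60 core genes, 59 had a count somewhere, 22 were counted in more than 50% of embryos and none in every embryo. A median embryo had a count for 26 of them, with a range of 7 to 45. H4c3, a gene for histone H4, was the highest at 10.7 ± 5.79 per kilobase and was counted in all embryos but 1 (chr13:23697635-23698454). Hist1h2ao (9.02 ± 7.28 per kilobase), H2ac14 (8.20 ± 7.78) and H2bu2 (7.77 ± 6.24) came next among core genes, and the highest H3 gene was H3c13 at 4.94 ± 4.51 per kilobase. The mean ± SD ranges of these 5 genes overlap, and the order of their means was not tested. Hist1h2ao and H2ac14 share 93.78% and 93.48% of their words with other transcripts, so that their reads cannot be assigned with certainty.

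The linker genes of the cluster were led by H1f1, which shares almost no sequence with other genes, at 8.43 ± 5.57 per kilobase (chr13:23763666-23764406). H1f2 and H1f5 were near each other at 1.78 and 1.65 per kilobase, and H1f4 and H1f3 were at 0.135 and 0.0966. The cluster genes of testis and oocyte type were uneven too. H2ac1, an H2A gene, was at 11.2 ± 8.58 per kilobase and was counted in 214 embryos. Its mean lay above every replication-dependent mean, though its mean ± SD range overlaps that of H4c3 and the order was not tested. Its H2B neighbour H2bc1 was at 3.89 ± 4.70 per kilobase and was counted in 169 embryos. H1f6, the testis H1, was counted in 2 embryos.

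Among replication-dependent genes with the hairpin in the model, those annotated well past it held the larger part of the counts. The 19 genes annotated for 100 or more bases beyond the hairpin gave 50.4% of the counts of the class, with a median of 7.51 counts per gene. The 22 genes whose model ends sooner gave 20.9%, with a median of 1.75 counts per gene. Per kilobase the 2 sets were close, with medians of 0.772 and 0.575. The set with long models also shared fewer words with other transcripts (median 32.1% against 65.1%), so length, read assignment and RNA level cannot be told apart in this comparison. The 8 models with room but no hairpin had higher medians than both sets, at 9.94 counts per gene and 2.21 per kilobase. The 16 models without room had lower medians, at 0.932 counts and 0.355 per kilobase. A high count per gene was thus not particular to models that run past the hairpin. The exons of 32 members overlap those of another gene, in 29 of them on the opposite strand. Counting used strand setting 2, but the reads carry no strand information, so those of a member and of such a partner cannot be told apart. Part of the reads of a member may thus be counted for its partner, and the reverse.

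To ask whether the diet of the sire moved these transcripts, HFD and LFD embryos were compared with edgeR over all genes that passed the filter on low counts. No histone gene was called: 0 of the 28 that passed, against 2.15% of the 14820 genes tested (false discovery rate, FDR, under 0.05), 1.26% higher and 0.891% lower in HFD. At an unadjusted p under 0.05 there were 4 of 28 (3 higher and 1 lower in HFD), and 13.1% of all genes. DESeq2 called none of the 28 either (3.12% of all genes) and limma-voom called 1 (2.23%). Without the filter on low counts 10 of 91 were called, and 15.4% of all genes. The median log2 fold change of the 28 was 0.12, and 19 were above 0, beside a median of 0.01 over all genes tested. The 28 comprised 16 replication-dependent genes, 2 of testis and oocyte type, 6 replacement variants, 3 other linkers and the antisense RNA H3f3aos. The other 77 members did not pass the filter. Of these, 14 had no count in any embryo and entered no fit, and the rest enter the fit without the filter. With the filter, 29 members were tested without libraries of few genes, and 29 without HFD embryos numbered 31 to 70. Of the 10 calls of the fit without the filter, 1 was H2ax and 9 were members that did not pass it. Hist1h2an was counted in 84 HFD and 44 LFD embryos (1.04 ± 0.35, edgeR adjusted p = 0.0261), H1f7 and H2al1j in 1 embryo each.

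**Figure D2:**
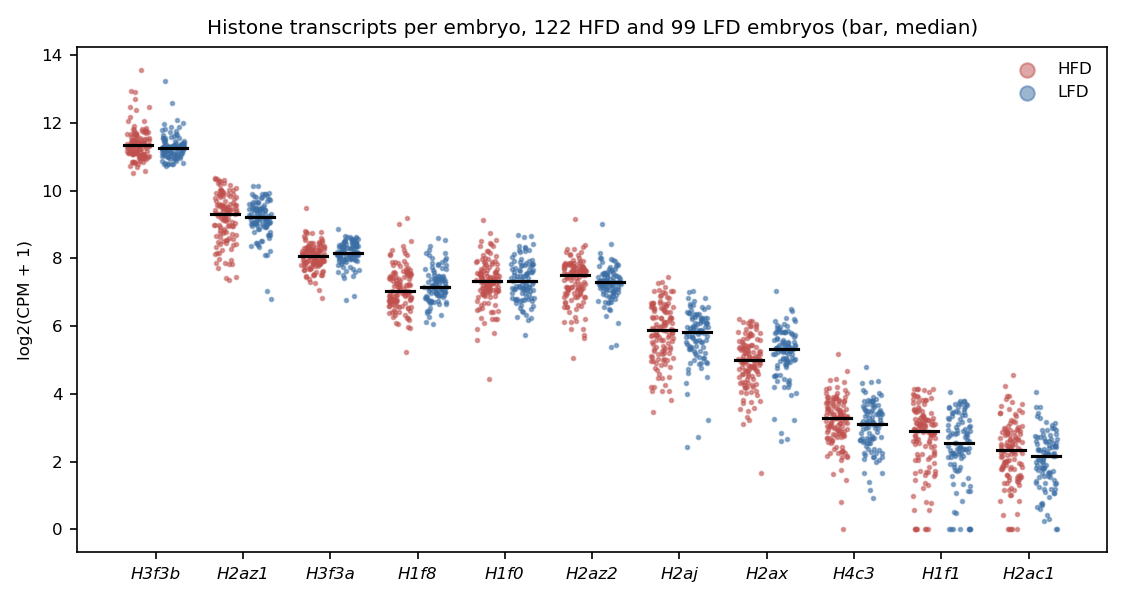
Level of 11 histone transcripts in each embryo as log2(CPM + 1), HFD and LFD side by side, with 1 point per embryo and a bar at the median. The groups overlap for every gene shown, and H3f3b lies above the other genes in both.

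H2ax had the smallest p of the 28. Its level in HFD embryos was 2.20 CPM at the lowest, 30.7 at the median and 73.4 at the highest, and in LFD embryos 5.16, 38.9 and 131 CPM. The groups overlap over most of their range, and 36 HFD embryos lay above the LFD median. The log2 fold change was −0.26 ± 0.099 (SE; edgeR adjusted p = 0.161). Within ranges of 10 embryo numbers, the mean was lower in HFD in 9 of 11. Nothing ties equal numbers in the 2 diets to a sire or day, so such ranges are not matched sets.

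H3f3b ran from 1462 over 2573 to 12047 CPM (lowest, median, highest) in HFD and from 1690 over 2434 to 9536 CPM in LFD embryos. The ranges overlap over most of their length, and the HFD range is wider at both ends. The log2 fold change was 0.16 ± 0.067 (edgeR adjusted p = 0.210). Within ranges of 10 embryo numbers, the mean of H3f3b was higher in HFD in 8 of 11. In HFD embryos numbered 31 to 70 the median was 3262 CPM (n = 38) against 2328 CPM in the other 84. Without them the log2 fold change of H3f3b was −0.03 ± 0.059 (edgeR adjusted p = 0.931), and 1.18% of all genes were called. The labels do not mark these numbers as a group. Leaving them out takes embryos with a higher median from the HFD group alone, which lowers the fold change, so this fit cannot decide on diet. H3f3b was called, however, with ranges of 10 embryo numbers as terms (0.21 ± 0.062, edgeR adjusted p = 0.0302), a fit that called 3.99% of all genes. These ranges are not a labelled batch. With the number itself as a block, limma-voom called H3f3b and H2ac8 (5.51% of all genes), and with ranges as a random effect it called H2ac8 alone among the members (0.58%).

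The other 2 transcripts under an unadjusted p of 0.05 were cluster H2A genes. H2ac1 had medians of 4.13 CPM in HFD and 3.45 in LFD embryos, with ranges of 0 to 22.4 and 0 to 15.6. Its log2 fold change was 0.39 ± 0.17 (edgeR adjusted p = 0.266), and HFD was higher in 10 of 11 ranges of embryo numbers. H2ac8 had medians of 1.58 and 0.371 CPM, with ranges of 0 to 23.04 in HFD and 0 to 32.6 in LFD embryos. It was counted in 96 HFD and 60 LFD embryos, with a log2 fold change of 0.72 ± 0.32 (edgeR adjusted p = 0.270). Limma-voom, which weights low counts differently, gave 1.39 ± 0.31 for H2ac8 (adjusted p = 0.00297), and 1 LFD embryo holds 6.11% of its counts. H2bc12 was lower in HFD in all 11 ranges, which are not matched sets, at −0.39 ± 0.21 (edgeR adjusted p = 0.401).

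The 95% interval of the log2 fold change was 0.03 to 0.30 for H3f3b and −0.46 to −0.07 for H2ax, the intervals among the 8 highest members that exclude 0. It was −0.15 to 0.05 for H3f3a, −0.17 to 0.16 for H1f0, −0.16 to 0.18 for H1f8 and −0.03 to 0.28 for H2az1. H2az2 lay between −0.01 and 0.28, and H2aj between −0.0014 and 0.40. Among replication-dependent genes it was wider, at −0.02 to 0.43 for H4c3 and −0.03 to 0.69 for H1f1. These intervals treat embryos as independent. The share of histone counts held by replication-dependent genes averaged 1.87% ± 0.734 among LFD and 1.95% ± 0.839 among HFD embryos. This difference is small beside the spread between embryos and was not tested.

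**Figure D3:**
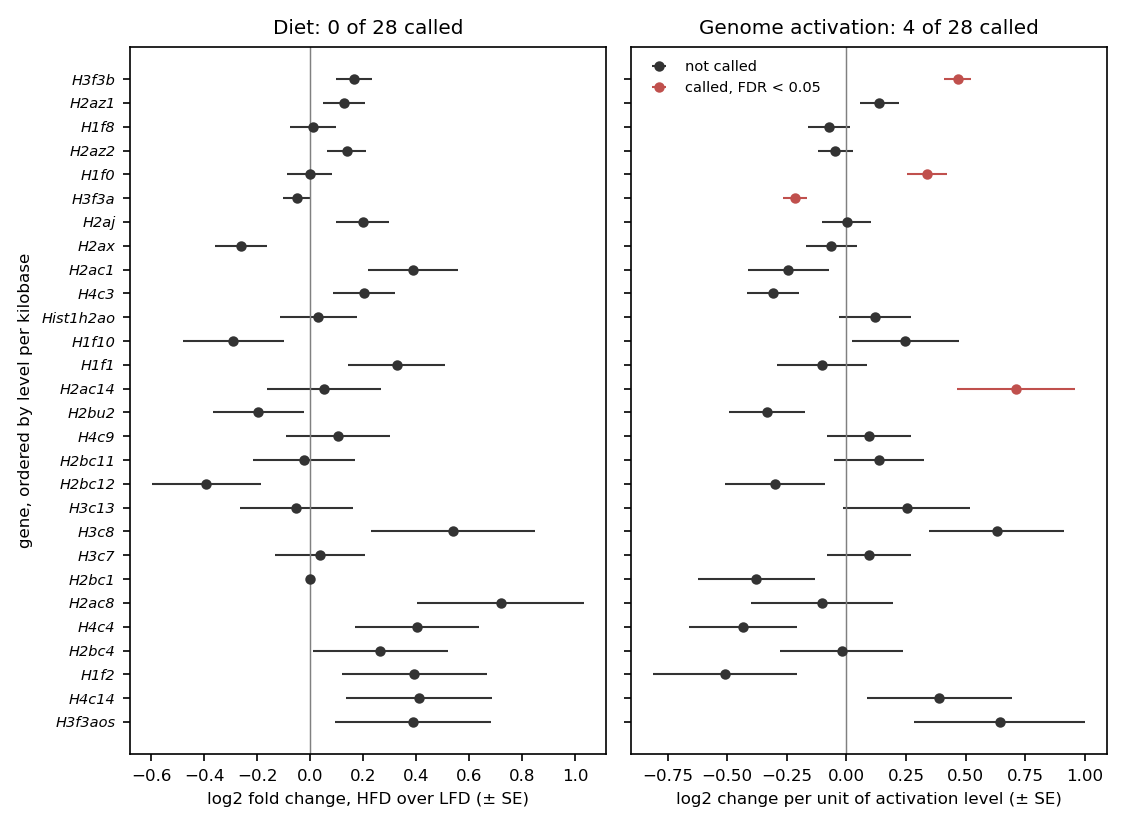
Left, log2 fold change of HFD over LFD for the 28 tested histone genes; right, log2 change per unit of genome activation level; points are edgeR estimates and bars ± SE, which could not be had for H2bc1 on the left. No gene is called on the left, and H3f3b, H3f3a, H1f0 and H2ac14 are called on the right.

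The early 2-cell stage spans the first wave of embryonic transcription and the decay of maternal mRNA, and embryos of 1 collection differ in how far they have come. Each embryo was given a genome activation level, the mean log2(CPM + 1) of 15 two-cell transcripts such as Zscan4c and Zfp352 less that of 14 maternal transcripts such as Gdf9 and Bmp15. It ran from −3.29 to 0.44, with medians of −1.16 in HFD and −1.32 in LFD embryos. Slopes on this level were fitted with diet as a covariate, and 4 of 28 histone genes were called, 3 rising and 1 falling, against 10% of 14791 genes (5.12% rising and 4.88% falling). With DESeq2, 5 of 28 were called and 14.2% of genes, of which 33.5% rose, against 51.2% of the edgeR calls. The median edgeR slope of the 28 was −0.01, beside −0.04 over all genes tested.

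H3f3b rose by 0.47 ± 0.057 log2 units per unit of level (edgeR adjusted p = 1.90e-11), a factor of 1.37 from the 10th to the 90th percentile of the level. H1f0 rose by 0.34 ± 0.085 (edgeR adjusted p = 0.00312), a factor of 1.25. H2ac14 rose by 0.71 ± 0.25 (edgeR adjusted p = 0.0452), from a median of 2.22 CPM, a call that was lost with number ranges within a diet as terms (edgeR adjusted p = 0.0761, with 6.64% of all genes called). It was also lost without the 2 farthest embryos (edgeR adjusted p = 0.0856), on the 2-cell transcripts alone (0.243) and on the maternal transcripts alone (0.0589). H3f3a, which encodes the same protein as H3f3b, fell by 0.22 on the log2 scale (SE 0.051, edgeR adjusted p = 0.00141). H4c3 had a slope of −0.31 ± 0.11 (edgeR adjusted p = 0.0510) and did not pass. The oocyte linker H1f8 had a slope of −0.07 ± 0.088 (edgeR adjusted p = 0.670).

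**Figure D4:**
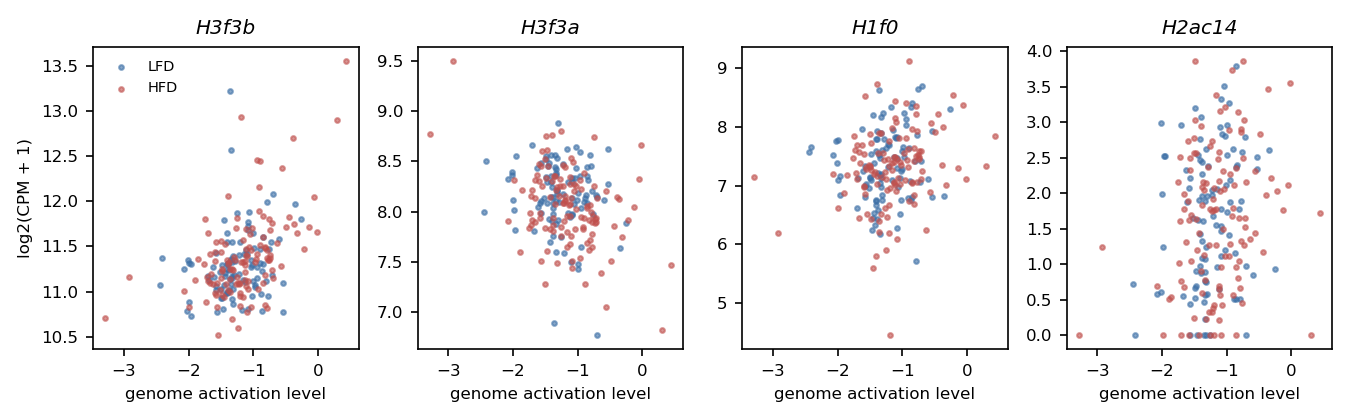
Level of the 4 called histone transcripts, as log2(CPM + 1), against the genome activation level, with 1 point per embryo coloured by diet. H3f3b and H1f0 rise and H3f3a falls across wide scatter, and the points at either end of the axis are HFD embryos.

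Libraries of few genes weigh on the slope of H3f3b. In the 13 libraries with a count for fewer than 16000 genes its median was 5621 CPM, against 2442 CPM in the other 208, and all 6 of its highest embryos are among the 13. Without these libraries the slope was 0.30 ± 0.044, and with the number of genes as a covariate 0.25 ± 0.039, both called (8.65% and 10.2% of all genes). Among LFD embryos alone the slope of H3f3b was 0.24 ± 0.11 (edgeR adjusted p = 0.347), and none of the 16 members tested there was called (2 at an unadjusted p under 0.05, and 1.04% of all genes called). The difference of slopes between the diets was called for 0 of 28 members and 0 of 14791 genes (edgeR interaction term). At an unadjusted p under 0.05 there were 3 of 28 members, beside 4.19% of all genes. They were H3f3b (HFD less LFD, 0.29 ± 0.13), H3f3a (−0.24 ± 0.11) and H2ac8 (−2.42 ± 0.87). Among HFD embryos alone the slope was 0.55 ± 0.068 for H3f3b and −0.29 ± 0.062 for H3f3a, both called (7.81% of all genes). For H3f3a the call over both diets rested on the embryos at the ends of the axis: without the 2 farthest from the median the slope was −0.09 ± 0.057 (edgeR adjusted p = 0.323, with 9.12% of all genes called).

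The slopes depended strongly on which transcripts set the level. On the 2-cell transcripts alone H2az1 had a slope of −0.33 ± 0.083, H2az2 of −0.52 ± 0.070 and H2aj of −0.62 ± 0.10. On the maternal transcripts alone, with the sign turned so that a higher value means less maternal RNA, the slopes of these genes were 1.33 ± 0.11, 1.21 ± 0.096 and 1.53 ± 0.14. H1f8 went the opposite way, with 0.36 ± 0.083 on the 2-cell and −0.78 ± 0.10 on the maternal transcripts, so that it was high where maternal transcripts were high. All 8 of these slopes were called by edgeR. So were 39.1% of all genes on the 2-cell and 56.4% on the maternal transcripts, against 9 and 12 of the 28 members. On the difference of both lists edgeR called none of these 4 genes. Other fits of that difference did call some. Limma-voom called H2az1 (0.25, adjusted p = 0.0497), edgeR with the number of genes as a covariate called H2az2 (−0.20, adjusted p = 0.0496), and edgeR on a level from summed CPM called H2az1, H2az2 and H2aj. H3f3b was called on the maternal transcripts (0.83 ± 0.077) but not on the 2-cell transcripts (0.09 ± 0.073), and H1f0 the other way about (0.06 ± 0.13 and 0.35 ± 0.089).

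**Figure D5:**
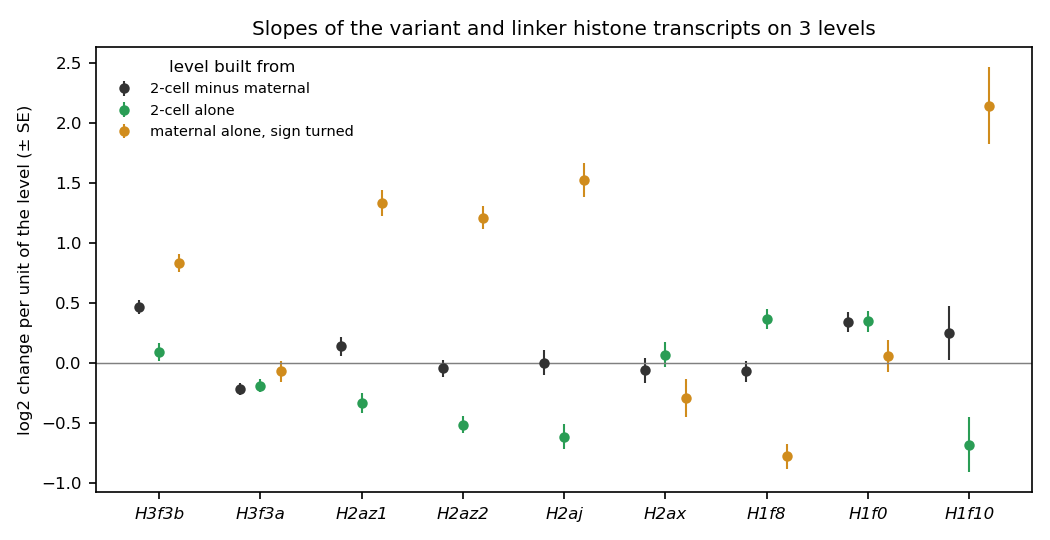
Slope of 9 variant and linker histone transcripts (log2 change per unit ± SE) on 3 levels, built from 2-cell less maternal transcripts, from 2-cell transcripts alone and from maternal transcripts alone with the sign turned. H2az1, H2az2, H2aj and H1f10 lie below 0 on the second and above 0 on the third, and H1f8 the reverse.

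The coefficient of variation of CPM was lowest for H3f3a (25.5%), lay between 25.5% and 51.2% for the 6 tested replacement variants and had a median of 92.1% in the 16 replication-dependent genes, beside 57.4% over all genes tested. It was highest for H2ac8 (169%). In H1f2, 1 HFD embryo held 10.2% of all counts. The part of low counts in this spread was not tested.

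Genes that process, carry or accompany histones were read from the same fits. Of 12 genes of stem-loop mRNA processing, none was called for diet by edgeR (2 at an unadjusted p under 0.05) and 1 by DESeq2, against 2.15% and 3.12% of all genes. On the activation level 2 rose and 2 fell, against 10% of all genes. Casp8ap2, a factor of the histone locus body, rose by 0.14 ± 0.039 (edgeR adjusted p = 0.00720), and Lsm10, a subunit of the U7 particle that cleaves histone pre-mRNA, had a slope of −0.41 ± 0.098 (edgeR adjusted p = 0.00191). Sympk, a scaffold of the cleavage complex, had the smallest p for diet, at −0.39 ± 0.12 (edgeR adjusted p = 0.0608), followed by Srrt at −0.21 ± 0.087 (edgeR adjusted p = 0.230).

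Of 24 chaperones and exchange factors, edgeR called 3 higher in HFD and none lower, against 2.15% of all genes. Ubn2, a partner of the H3.3 chaperone HIRA, was higher by 0.32 ± 0.075 log2 units (edgeR adjusted p = 0.00484), Anp32e, which removes H2A.Z, by 0.19 ± 0.053 (edgeR adjusted p = 0.0298), and Rbbp4 was the third. Limma-voom and ranges as a random effect each called 1, and fixed ranges and the block on the number each called 3 higher and 2 lower. Without HFD embryos numbered 31 to 70 edgeR called none of the 24, with 4 at an unadjusted p under 0.05. That fit takes embryos from the HFD group alone and cannot decide on diet. On the activation level 1 rose and 3 fell, against 10% of all genes. Asf1b, an H3-H4 chaperone, rose by 0.31 ± 0.064 (edgeR adjusted p = 0.000189), and Npm2, the oocyte nucleoplasmin, had a slope of −0.41 ± 0.076 (edgeR adjusted p = 2.34e-05).

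Of 24 DNA replication genes, edgeR called 2 higher and 1 lower in HFD, against 2.15% of all genes. With ranges as a random effect limma-voom called none (3 at an unadjusted p under 0.05; adjusted p = 0.226 for Ccne2 and 0.0553 for Cdt1). With activation 5 rose and none fell, against 10% of all genes. Ccne2, cyclin E2, was higher in HFD by 0.25 ± 0.065 (edgeR adjusted p = 0.0176), a call that limma-voom (adjusted p = 0.0596) and edgeR with the activation level as a covariate (adjusted p = 0.113) did not make. It rose with activation by 0.45 ± 0.063 (edgeR adjusted p = 1.02e-08). Rrm2, a ribonucleotide reductase subunit, rose by 0.36 ± 0.051 (edgeR adjusted p = 1.39e-08). Cdt1, the licensing factor, had a log2 fold change of −0.26 ± 0.065 (edgeR adjusted p = 0.00784). Without HFD embryos numbered 31 to 70 edgeR called none of these 24 for diet, with 5 at an unadjusted p under 0.05. Here too embryos were taken from the HFD group alone.

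Of 5 histone genes that the symbols did not match, 3 passed the filter and edgeR called none in either comparison, with 0 and 2 at an unadjusted p under 0.05. DESeq2 called none for diet and 1 for the slope. Cenpa, the centromeric H3, was at 36.6 CPM per kilobase, with a slope of −0.15 ± 0.056 (edgeR adjusted p = 0.0604). H4f16, an H4 gene outside the clusters, was at 1.45 per kilobase, with a slope of −0.36 ± 0.16 (edgeR adjusted p = 0.149).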

How the data were processed

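Poly(A)-primed RNA of 221 embryos (122 HFD, 99 LFD) was measured by Smart-seq2. The authors deposited unnormalized counts for each gene, obtained with Trim Galore 0.6.6, STAR 2.7.10a (GRCm38, with the mitochondrial sequence of the Staudach line) and featureCounts 2.0.3. Per the file headers, reads were counted over exons of Ensembl release 102 by gene name, with strand setting 2, and reads that align to several places were dropped. The symbols matched 111 genes, 6 of them pseudogenes, which left 105 members. PCR reads carry no molecular identifiers, and the spread between embryos was used as the error.

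Counts were tested with edgeR 4.0.16 (TMM, filterByExpr by diet, quasi-likelihood test, Benjamini-Hochberg over all genes tested, FDR threshold 0.05) in R 4.3.3, with DESeq2 1.42.0 and limma 3.58.1 as alternatives. SE was the fold change over the root of F. On simulated counts, 57.3% of genes changed by 0.5 log2 units and 95.9% of those changed by 1 were recovered for diet, and 51.0% and 94.6% for the slope. Of the calls, 11 of 159 were false for diet and 5 of 142 for the slope. Changed genes were drawn from the genes that passed the filter, and simulated embryos were independent, so these rates need not hold for the members. Levels per length used the gene length in the table. Python 3.11.15 served for the other steps.

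The members, classes and lists were chosen with earlier results of these data known. Named were the highest member of each histone type in each class, the 8 highest of all, members called for diet, the 3 largest and 3 smallest called slopes, and for each list the 2 smallest p in each comparison. H2ac8, H2bc12, H1f10, H3c7, the lesser cluster linkers, the lowest variants, Rbbp4 and the members of other fits were named after their values were seen. H2bu2 and H2aw were classed as replication-dependent by their older symbols Hist3h2ba and Hist3h2a. All 105 genes matched the GENCODE annotation, and no protein sequences were used here.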

Additional observations from a re-analysis of the deposited data

How the results depend on the processing

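Members called for diet numbered 0 of 28 with edgeR. The number was 1 with limma-voom or with number ranges as a random effect (H2ac8 both times), 1 with ranges as fixed terms (H3f3b), and 10 of 91 without the filter, where 15.4% of genes were called. These 10 range from H2ax, counted in every embryo, and Hist1h2an, H2bc14, H2al1m, H4c12, H2bl1, Hist1h2br and H1f6 to H1f7 and H2al1j, counted in 1 embryo each. The count stayed at 0 under the other 8 alternatives. Of all genes, 318 were called, against 7030 without the filter (70.3% of calls higher), 86 and 591 with ranges as random and fixed terms (46.5% of calls higher with fixed terms), 579 without libraries of few genes and 175 without HFD numbers 31 to 70 (34.3% of calls higher, against 58.5%).

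Embryo numbers occur in both diets, but nothing ties equal numbers to a sire or day. Over 94 shared numbers the mean correlation of deviations was 0.0155, 20 pairs exceeded 0.1, and 1 embryo correlated best with its own number, so the numbers were not taken to pair embryos. A replicate block on the number called 2 members (H3f3b and H2ac8) and 796 genes (43.2% of calls higher), with 1 stem-loop gene and 5 chaperones.

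For lists and diet, stem-loop genes called went from 0 to 1 with DESeq2, without the filter, with the stricter filter or without libraries of few genes. Chaperones went from 3 to 1 with limma-voom or random ranges, 5 with fixed ranges and 0 without HFD numbers 31 to 70. Replication genes went from 3 to 0 with random ranges or without those numbers. HFD numbers 31 to 70 are not a labelled group, and leaving them out takes embryos from 1 diet alone.

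For the slope, 4 members were called, and 10% of the genes tested. LFD embryos alone gave 0 members and 1.04% of genes, HFD embryos alone 7.81% of genes, and ranges as terms 6.64%. A level from summed CPM gave 15 members and 31.2% of genes, the 2-cell transcripts alone 9 and 39.1%, and the maternal transcripts alone 12 and 56.4%. Leaving out the 2 farthest embryos gave 2 members. The slopes with the macrophage level as a covariate, without HFD numbers 31 to 70, and on each list alone were added after the data were seen. Stem-loop genes went from 4 to 1 in HFD and 0 in LFD embryos, 2 with the number of genes as a covariate or without the 2 farthest, and 7 on maternal transcripts. Chaperones went from 4 to 0 in LFD embryos, 9 on summed CPM, 11 on 2-cell and 13 on maternal transcripts. Replication genes went from 5 to 3 in HFD embryos, without the 2 farthest or without HFD numbers 31 to 70, 0 in LFD embryos, 8 on summed CPM, 12 on 2-cell and 15 on maternal transcripts. Of the histone genes outside the symbols, 1 was called in place of 0 with DESeq2, on summed CPM, with the number of genes or macrophage level as a covariate, and on either list alone.

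Slopes that turned were those of H2az1 (−0.33), H2aj (−0.62), H1f10 (−0.68), H1f8 (0.36) and Anp32e (−0.21) on the 2-cell transcripts, and of H2az2 (1.21), H2ac8 (1.38), Cenpa (0.35) and Asf1b (−0.012, not called) on the maternal transcripts, with H2az2 at 0.24 on summed CPM. The causes were not tested. Class levels moved by less than 1 SD under all alternatives run for them. Depth limits the 77 members that did not pass the filter, and poly(A) priming limits every replication-dependent level.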
